A study of Mus musculus with 8 samples.

Results

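Transcripts of 32 genes of glycolysis and pyruvate use were followed through the T cells of mouse bone marrow. The 32 symbols were looked up in the gene list of 4 single-cell libraries, and all 32 were found, on 33 of 32285 rows. Aldoa holds 2 of these rows, and the identifier ENSMUSG00000030695, which carries nearly all of its counts, was used. The study compared mice with the fusion gene Runx1::Runx1t1 with control mice. In the Runx1::Runx1t1 group the mice carried Runx1Runx1t1/+ with Mx1-Cre, a Cre recombinase driven by an interferon-inducible promoter. The control littermates carried the same allele without Mx1-Cre by the study's methods, while the sample labels call them WT. All mice were C57BL/6, were given Poly(I:C) every other day, 4 times in all and 5 mg/kg each time, and were killed 4 weeks after induction. Cells of 2 mice were mixed in each pool and each group had 2 pools, replicate 1 and replicate 2, so n = 2 pools per group. T cells were enriched by removal of other cells and sorted as live CD3+ cells without mCherry, the reporter of the fusion, so the cells measured were T cells in which the reporter was off. Each pool gave a 10x Genomics 5′ gene expression library and a T cell receptor library. The labels do not say which mice or litters made up a pool.

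Glycolysis takes up glucose through the transporters Slc2a1 (GLUT1) and Slc2a3 (GLUT3), phosphorylates it by a hexokinase, splits the sugar through phosphofructokinase and aldolase, and ends at pyruvate through pyruvate kinase. Pyruvate is then either reduced to lactate by lactate dehydrogenase and exported by the monocarboxylate transporters Slc16a1 (MCT1) and Slc16a3 (MCT4), or carried into mitochondria by Mpc1 and Mpc2 and oxidized by pyruvate dehydrogenase, which the kinase Pdk1 inhibits. Activated and effector T cells are known for a high glycolytic flux, whereas resting naive T cells rely mainly on oxidative metabolism. The transcription factor Hif1a is known to drive many of these genes when oxygen is low or the T cell receptor is engaged.

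Cells were placed in 8 classes by UMI counts of marker genes that include none of the 32 genes, a UMI being 1 counted RNA molecule. The classes were naive, memory, effector and Pdcd1 Cd8 cells, naive, experienced and Foxp3 Cd4 cells, and co-receptor-negative T cells. The last lacked Cd4, Cd8a and Cd8b1 UMIs and held at least 2 UMIs over Klrb1c, Klrd1, Klrk1, Il2rb, Trdc, Xcl1 and Fcer1g. Cd4 or Cd8 cells whose co-receptor RNA was missed can enter this class. The 4 pools together held 1177 naive, 15730 memory, 2842 effector and 2811 Pdcd1 Cd8 cells, 515 naive, 4764 experienced and 1423 Foxp3 Cd4 cells and 10722 co-receptor-negative cells. The markers lay where the gates put them: Ccr7, the homing receptor of naive cells, at 1072 to 2188 CPM (defined below) in naive Cd8 sums and 65.1 to 139 in effector Cd8 sums, and Gzmb, a granzyme of killer cells, at 0 in the former and 321 to 667 CPM in the latter. Both are genes of the gates, so these levels describe the classes and do not test them. Foxp3 stood at 9.85 to 75.5 CPM in co-receptor-negative sums, against 515 to 728 in Foxp3 Cd4 sums. Memory Cd8 sums held 467 to 877 CPM of Ccr7. The memory Cd8 class was mixed. Of its cells, 41.3% to 51.0% per pool held at most 3 UMIs of Ccl5, a chemokine of memory and effector Cd8 cells, and 43.5% to 52.9% held at least 10. A second set of Cd8 gates, chosen after these marker counts were seen and called Ccl5 gates here, took naive cells at no more than 3 Ccl5 UMIs (8882 cells) and memory (7666 cells), effector and Pdcd1 cells at 10 or more. The designed gates give the values below unless the Ccl5 gates are named.

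For each pool and class the UMIs were summed. A level is given as CPM, the UMIs of a gene divided by all UMIs of that sum and multiplied by 1000000. Levels are compared between sums of the same gene only, since counts of transcripts were not divided by length. Where 4 values stand together they are Runx1::Runx1t1 replicate 1, Runx1::Runx1t1 replicate 2, control replicate 1 and control replicate 2. A log2 fold change comes from edgeR's quasi-likelihood test after TMM scaling and is followed by its SE. A call means a Benjamini-Hochberg adjusted p under 0.05 over all genes tested. Counts of members called with thinning, another scaling, another test or a pool left out stand without the share of all genes. A change in such a count cannot be told from a change in the calls of all genes. Comparisons that name naive Cd8 cells share the same naive sums. Ribosomal protein genes took 35.5% to 37.8% of UMIs in naive Cd8 sums but 19.0% to 26.8% in Pdcd1 Cd8 sums. In these comparisons a log2 fold change after TMM scaling generally lies below that of the CPM, so a rise is smaller and a fall is larger. Scaling by library totals alone moved the median of all genes by 0.28 for effector against naive Cd8, 0.34 for Pdcd1 against naive Cd8, 0.24 for experienced against naive Cd4 and 0.22 for co-receptor-negative against memory Cd8. In such sums, fewer cells that express a gene and less of its RNA per cell cannot be told apart.

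The 4 libraries held 90958101 to 102883449 UMIs in all, and 52924 of 56649 barcodes were kept. Between 226 and 263 kept barcodes were shared by any pair of libraries. Runx1t1, the fusion partner gene, gave 100 and 107 UMIs (1.06 and 1.17 CPM) in the Runx1::Runx1t1 pools and 15 and 37 (0.180 and 0.406 CPM) in the control pools. Runx1 stood at 100.4 and 94.0 against 79.3 and 84.0 CPM. Both genes ran in the direction of the labels, and counts per gene do not tell fusion transcripts from the normal ones. RNA of neutrophils was higher in the control pools. The sum of 6 neutrophil granule genes (S100a8, S100a9, Camp, Ngp, Ltf and Lcn2, all found) ran from 0 to 6.36 CPM over the sums of the Runx1::Runx1t1 group and from 10.7 to 476 over those of the control group, without overlap in any of the 8 classes, and was highest in control replicate 1 in 7 of them. S100a8 was at 0 in 4 of 16 Runx1::Runx1t1 sums and in none of 16 control sums, and Ltf and Lcn2 each in 8 of 16 Runx1::Runx1t1 sums. The sum of 3 monocyte genes (Csf1r, Lyz2 and Fn1) ran from 1.20 to 9.35 and from 11.4 to 63.9 CPM, also without overlap in any class. Of its 3 genes Lyz2 alone lay apart (0.819 to 3.47 against 10.4 to 60.2 CPM), while Csf1r and Fn1 reached up to 0.721 and 3.37 CPM in control sums and 1.34 and 5.34 in those of Runx1::Runx1t1 pools. Sums of other markers lay above in the control group without overlap in fewer classes, 4 of 8 for 4 B cell genes, 4 for 6 erythroid genes, 3 for 3 progenitor genes and 2 for 3 NK cell genes. The highest erythroid sum, 75.5 CPM, was that of a Runx1::Runx1t1 pool, against at most 24.3 in control pools. The part of this RNA in the group differences was not tested.

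The 32 genes together took a smaller mean share of all UMIs in naive cells than in any other class. The share was 0.354% ± 0.028 (SD, n = 4 pools) in naive Cd8 cells, 0.456% ± 0.057 in memory, 0.540% ± 0.053 in effector and 0.562% ± 0.038 in Pdcd1 Cd8 cells. It was 0.411% ± 0.022 in naive Cd4, 0.615% ± 0.067 in experienced Cd4, 0.663% ± 0.071 in Foxp3 Cd4 and 0.503% ± 0.058 in co-receptor-negative cells. Gapdh alone made up 26.2% to 41.0% of these UMIs. With ribosomal protein and mitochondrial genes left out of the totals, the share still ran from 0.579% in naive Cd8 cells to 0.842% in Foxp3 Cd4 cells. By mean CPM, 19 of the 32 genes were highest in Foxp3 Cd4 cells and 5 in experienced Cd4 cells, while 14 were lowest in naive Cd8 and 10 in naive Cd4 cells. Only 2 genes were highest in naive Cd4 cells, Pdk1 and Pfkfb4, and 1 in naive Cd8 cells, Slc16a1, and in each case the range over pools overlapped that of the next class. These ranks use CPM before TMM scaling, and the same ranks were not counted over all genes. Ribosomal protein genes took 18.9% to 20.3% of UMIs in Foxp3 Cd4 sums and 35.5% to 37.8% in naive Cd8 sums.

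**Figure D1:**
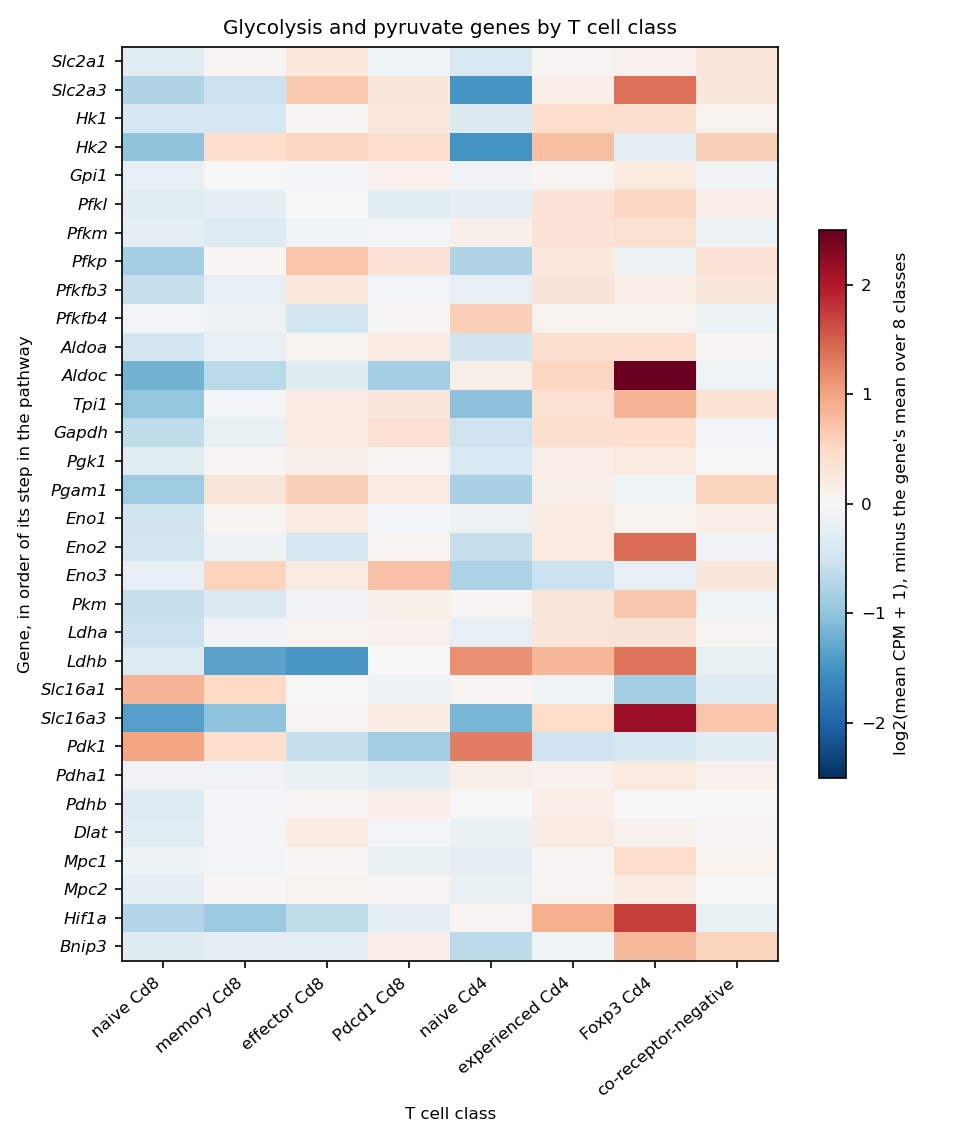
Levels of the 32 genes in the 8 classes, drawn as log2(mean CPM + 1) over 4 pools minus the gene's mean over the classes, with genes in the order of their step in the pathway. Slc2a3, Aldoc, Slc16a3 and Hif1a stand highest in Foxp3 Cd4 cells, and Pdk1 stands highest in the naive classes.

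Genes that Hif1a binds often carry the short core ACGTG or GCGTG near their start. RefSeq starts on GRCm38.p6 were available for 31 of the 32 genes, and the 250 bases before each start were searched on both strands for these letters. The E-box CACGTG also holds the core and is counted on each strand. At least 1 window held a core in 27 of 31 genes (87.1%), against 41.5% of 27025 genes with such windows. By windows the share was 77.8% of 45 for these genes and 38.6% of 32851 for all. Each core holds the letters CG, and the genes set beside the members were not matched for base composition or expression. The part of these in the difference was not tested. Windows of 4 genes are shown, chosen after their values were seen: Slc16a3, Aldoc and Bnip3 as genes called higher in Foxp3 than in experienced Cd4 cells, and Pdk1 as the gene called lower in every comparison with naive cells. Capitals mark the core on either strand.
Slc16a3 (chr11:120948817-120949066, plus strand): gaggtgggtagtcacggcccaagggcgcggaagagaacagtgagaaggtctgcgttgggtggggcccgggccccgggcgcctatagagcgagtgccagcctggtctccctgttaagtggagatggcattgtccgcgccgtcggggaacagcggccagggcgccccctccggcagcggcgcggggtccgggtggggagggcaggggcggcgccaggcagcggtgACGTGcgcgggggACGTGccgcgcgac
Aldoc, first start (chr11:78322823-78323072, plus strand): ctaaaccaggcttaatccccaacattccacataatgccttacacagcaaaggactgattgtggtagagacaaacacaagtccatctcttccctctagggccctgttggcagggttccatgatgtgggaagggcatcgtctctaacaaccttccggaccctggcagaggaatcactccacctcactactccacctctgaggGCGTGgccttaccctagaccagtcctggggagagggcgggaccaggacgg
Bnip3 (chr7:138909507-138909756, minus strand): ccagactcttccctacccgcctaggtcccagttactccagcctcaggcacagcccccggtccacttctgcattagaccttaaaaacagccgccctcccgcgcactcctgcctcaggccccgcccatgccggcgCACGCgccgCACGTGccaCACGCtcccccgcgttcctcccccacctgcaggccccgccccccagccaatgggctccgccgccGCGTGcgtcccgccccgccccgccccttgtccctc
Pdk1, first start (chr2:71872974-71873223, plus strand): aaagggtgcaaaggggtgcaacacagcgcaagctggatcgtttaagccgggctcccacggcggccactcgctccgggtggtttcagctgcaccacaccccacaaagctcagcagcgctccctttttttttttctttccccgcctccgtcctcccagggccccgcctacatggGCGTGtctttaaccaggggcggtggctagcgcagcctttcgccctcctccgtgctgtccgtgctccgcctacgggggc
The cores of Slc16a3 began 27 and 14 bases before the start, that of Aldoc 50 and that of Pdk1 78 bases before it. Bnip3 held 5 matches, which began between 117 and 35 bases before its start and include 1 E-box read on both strands. A match is a run of letters and not a site of binding, and the window of the second Pdk1 start held none.

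The first question was how the route differed between resting and antigen-experienced Cd8 cells. In memory against naive Cd8 cells, 11 of the 31 genes tested were higher and 2 lower, where 10.8% and 6.68% of all 10671 genes were. The higher genes were Pgam1, Pfkp, Tpi1, Eno1, Ldha, Gapdh, Pgk1, Aldoa, Pkm, Slc2a1 and Hk2, and the lower ones Pdk1 and Ldhb. The median log2 fold change was 0.19 for the members (0.17 with Aldoc, at 0 UMIs in naive Cd8 cells, at its bound) and 0.024 for all genes. Memory cells held more UMIs per cell (medians of 7219.5 to 8809 per pool) than naive cells (5372 to 5740). With every cell thinned to 2000 UMIs, which also leaves fewer UMIs to test, the counts were 6 higher and 2 lower of 24, Slc2a1, Aldoa, Pgk1 and Pkm were no longer called, and Hk2 had too few counts. With the Ccl5 gates, 11 of 32 were higher and 4 lower, where 17.6% and 16.1% of 11683 genes were.

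In effector against naive Cd8 cells, 13 members were higher and 4 lower, where 21.6% and 18.9% of all genes were. The median was 0.17 for members (0.17 with Aldoc at its bound) and 0.0081 for all genes. The 4 lower genes were Pdk1, Ldhb, Slc16a1 and Pdha1. In Pdcd1 against naive Cd8 cells, 10 were higher and 4 lower, where 23.7% and 21.4% of all genes were, with medians of 0.15 (0.15 with Aldoc at its bound) and 0.025. The 4 lower genes were Pdk1, Slc16a1, Pdha1 and Mpc1. These splits depended on the scale and on the gates. With library totals alone they were 20 higher and 3 lower for effector and 15 and 2 for Pdcd1 cells. The medians of all genes were then 0.29 and 0.37. With the Ccl5 gates the splits were 9 and 10 of 32 members in both comparisons. All genes then split 2912 higher and 2907 lower of 11683 in effector cells, and 3302 and 3197 in Pdcd1 cells. Thinned to 2000 UMIs per cell the member splits were 8 and 4, and 6 and 6, of 24 members. Pkm, Ldha and Pdha1 then lost their calls in effector and Pgam1, Pkm and Ldha in Pdcd1 cells.

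In Pdcd1 against effector Cd8 cells the direction turned: 2 members were higher and 9 lower, where 6.92% and 7.08% of all genes were, with medians of -0.17 for members and 0.0097 for all genes. The lower genes were Slc2a1, Slc2a3, Pfkp, Pfkfb3, Pgam1, Eno1, Slc16a1, Pdk1 and Mpc1, and the higher ones Ldhb and Pkm. Library totals gave 4 higher and 7 lower, DESeq2 4 and 10, and the Ccl5 gates 3 and 11 of 32. With the Ccl5 gates 927 and 1047 of all 11683 genes were called. Runx1::Runx1t1 replicate 2 held 2049 of the 2811 Pdcd1 Cd8 cells, 876 of them of 1 clonotype. Without that pool 4 members were called, and without only that clonotype 14. Without Runx1::Runx1t1 replicate 1 the number was 3, and after thinning 7, with Pfkfb3, Pkm, Slc16a1, Pdk1 and Mpc1 no longer called.

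In experienced against naive Cd4 cells, 12 members were higher and 1 lower, where 17.1% and 14.7% of all genes were. The higher genes were Gapdh, Aldoa, Tpi1, Pfkp, Slc2a3, Pgam1, Hk1, Hif1a, Pgk1, Hk2, Ldha and Slc16a3, and the lower one was Pdk1. The medians were 0.24 for members (0.24 with Hk2, at 0 UMIs in naive Cd4 cells, at its bound) and 0.043 for all genes. In Foxp3 against experienced Cd4 cells, 8 were higher and 3 lower, where 11.8% and 9.56% of all genes were, with medians of 0.049 and -0.0035. Slc2a3, Aldoc, Slc16a3, Hif1a, Pkm, Bnip3, Mpc1 and Tpi1 were higher, and Pfkp, Slc16a1 and Pdhb lower. Thinning ended the calls of Hk1 and Pgk1 in the first comparison and of Tpi1, Slc16a1 and Pdhb in the second. In co-receptor-negative against memory Cd8 cells, 7 were higher and 6 lower, where 18.8% and 17.4% of all genes were, with medians of 0.02 and -0.0067. Library totals alone turned that last split to 18 higher and 2 lower, with a median of all genes of 0.21, and DESeq2 gave 9 and 6. The Ccl5 gates, whose memory class differs, gave 6 and 10 of 32, where 1632 and 1448 of all 11683 genes were called.

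Of the glucose transporters, Slc2a3 varied more between classes than Slc2a1. Slc2a3 levels were 8.35, 15.4, 16.8 and 13.7 CPM in naive Cd8 cells, 14.4, 16.9, 15.2 and 16.5 in memory, 41.0, 36.2, 35.7 and 36.8 in effector and 32.7, 29.4, 25.6 and 26.1 in Pdcd1 Cd8 cells. Every pool was higher in effector than in naive cells, without overlap of the classes (log2 fold change 1.09 ± 0.15, adjusted p = 1.52e-06), and Pdcd1 cells lay between them (0.64 ± 0.17, adjusted p = 0.00265 against naive, -0.45 ± 0.12, adjusted p = 0.00851 against effector cells). Memory and naive cells overlapped (0.084 ± 0.16, adjusted p = 0.835), but with the Ccl5 gates they did not (0.54 ± 0.10, adjusted p = 6.32e-05). In Cd4 cells Slc2a3 was higher at each step, from 5.35, 7.53, 10.1 and 8.11 CPM in naive to 26.0, 28.7, 24.2 and 26.9 in experienced and 56.8, 79.1, 56.7 and 56.0 in Foxp3 cells. No class overlapped the next (1.55 ± 0.25, adjusted p = 1.89e-05, and then 1.22 ± 0.11, adjusted p = 2.13e-09), and Foxp3 cells held the highest level of any class. Co-receptor-negative cells held 31.4, 33.9, 25.3 and 24.7 CPM, above memory Cd8 cells (0.64 ± 0.088, adjusted p = 1.38e-06).

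Slc2a1, the transporter that T cells are known to raise on activation, lay between 37.0 and 72.2 CPM in every sum of pool and class. Its levels were 50.1, 40.3, 42.1 and 42.2 CPM in naive, 62.7, 59.4, 48.0 and 48.5 in memory, 72.2, 64.4, 59.8 and 58.4 in effector and 59.1, 47.9, 48.9 and 42.6 in Pdcd1 Cd8 cells. It was higher in memory than in naive cells (0.25 ± 0.085, adjusted p = 0.0372), though not when cells were thinned (adjusted p = 0.974). It was lower in Pdcd1 than in effector cells (-0.44 ± 0.08, adjusted p = 0.000435). Effector and Pdcd1 cells did not pass the test against naive cells (0.23 ± 0.09 and -0.21 ± 0.10, adjusted p = 0.0531 and 0.0913), and the value for Pdcd1 cells became 0.14 with library totals alone and was called lower with the Ccl5 gates (-0.25 ± 0.084, adjusted p = 0.0131). In Cd4 and co-receptor-negative cells no comparison of Slc2a1 passed the test, with 0.24 ± 0.12 in experienced against naive Cd4, 0.0058 ± 0.08 in Foxp3 against experienced Cd4 and 0.058 ± 0.061 in co-receptor-negative against memory Cd8 cells.

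Hk1, the housekeeping hexokinase, was higher in Pdcd1 than in naive Cd8 cells (70.6, 92.9, 58.2 and 57.7 against 47.3, 49.9, 35.0 and 38.7 CPM, 0.47 ± 0.11, adjusted p = 0.000539). It was also higher in experienced than in naive Cd4 cells, at 80.6, 80.3, 79.3 and 73.8 against 52.2, 51.2, 38.7 and 35.7 CPM (0.56 ± 0.12, adjusted p = 0.000499), and in co-receptor-negative than in memory Cd8 cells (0.31 ± 0.067, adjusted p = 0.000571). Foxp3 and experienced Cd4 cells overlapped (-0.057 ± 0.082, adjusted p = 0.844), as did memory and naive Cd8 cells, which had the lowest mean levels of all classes (-0.00019 ± 0.10, adjusted p = 1). Effector against naive Cd8 cells gave 0.23 ± 0.10, adjusted p = 0.0742, and Pdcd1 against effector cells 0.24 ± 0.084, adjusted p = 0.0512. Hk2, the inducible hexokinase, was rare: it reached at most 4.66 CPM in any sum. No Hk2 UMI was found in naive Cd4 cells against 99 in experienced Cd4 cells, which made it at least 3.10-fold higher in the latter by the limit that a count of 0 allows (3 UMIs over the class, counting error only). In Cd8 cells Hk2 was higher in memory (3.04, 3.56, 2.33 and 2.20 CPM) and effector cells (4.66, 2.03, 4.17 and 1.46) than in naive cells (0, 0, 1.07 and 0.49), with 2.12 ± 0.68, adjusted p = 0.0305 and 1.97 ± 0.73, adjusted p = 0.0324. Only 4 UMIs stand behind the naive level, and with the Ccl5 gates, whose naive class held 112, its levels were 2.23, 2.34, 1.35 and 1.48 CPM in naive, 3.53, 4.22, 3.01 and 2.51 in memory and 4.60, 2.01, 3.82 and 1.48 in effector cells. Memory cells were then higher by 0.78 ± 0.27, adjusted p = 0.026, and effector cells overlapped with naive cells (0.38 ± 0.33, adjusted p = 0.357). Pdcd1 against naive, Pdcd1 against effector, Foxp3 against experienced Cd4 and co-receptor-negative against memory Cd8 cells gave 1.31, -0.66, -1.36 and -0.025 for Hk2, with adjusted p between 0.0547 and 0.959.

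At the committed step, Pfkp, the platelet-type phosphofructokinase, was the isoform that moved with class. Its levels were 42.7, 49.9, 41.4 and 39.7 CPM in naive, 85.5, 90.9, 72.6 and 78.7 in memory, 135, 135, 121 and 127 in effector and 91.1, 109, 93.1 and 117 in Pdcd1 Cd8 cells. Naive cells stood below each of the other Cd8 classes in all 4 pools, without overlap (0.90 ± 0.10, adjusted p = 1.45e-07 for memory, 1.32 ± 0.10, adjusted p = 2.11e-11 for effector and 0.88 ± 0.11, adjusted p = 1.24e-07 for Pdcd1 cells). Effector cells were the highest of all 8 classes, and Pdcd1 cells were lower than they (-0.44 ± 0.084, adjusted p = 0.000649). In Cd4 cells Pfkp was higher in experienced than in naive cells (0.79 ± 0.12, adjusted p = 8.3e-06) and lower again in Foxp3 cells, at 65.8, 87.1, 63.0 and 73.3 CPM (-0.43 ± 0.088, adjusted p = 0.000497). The liver and muscle isoforms Pfkl and Pfkm passed the test in none of the 7 class comparisons. Pfkfb3, whose product makes the activator of phosphofructokinase, was higher in effector than in naive Cd8 cells (16.6, 10.8, 13.0 and 15.8 against 9.28, 7.68, 7.14 and 5.39 CPM, 0.74 ± 0.23, adjusted p = 0.012) and lower in Pdcd1 than in effector cells (-0.57 ± 0.18, adjusted p = 0.0335). Its sister enzyme Pfkfb4 reached at most 6.30 CPM and was not called. Gpi1, which turns glucose phosphate into fructose phosphate, was called once, lower in co-receptor-negative than in memory Cd8 cells (-0.31 ± 0.067, adjusted p = 0.00046).

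From aldolase to enolase, most enzymes were higher in experienced than in naive cells. Pgam1, phosphoglycerate mutase, had 50.1, 63.3, 56.0 and 58.4 CPM in naive Cd8 cells and 144, 154, 105 and 120.2 in memory, 186, 156, 148 and 153 in effector and 116, 108, 122 and 146 in Pdcd1 Cd8 cells. None of these 3 classes overlapped the naive class (1.15 ± 0.13, adjusted p = 1.23e-07, 1.22 ± 0.13, adjusted p = 9.49e-09 and 0.70 ± 0.14, adjusted p = 0.000138), and Pdcd1 cells were lower than effector cells (-0.52 ± 0.11, adjusted p = 0.00214). Tpi1, triose phosphate isomerase, had 38.1, 32.6, 32.5 and 30.9 CPM in naive, 68.9, 74.1, 53.6 and 61.1 in memory, 81.6, 74.6, 74.1 and 72.1 in effector and 71.4, 88.3, 67.5 and 96.1 in Pdcd1 Cd8 cells, again without overlap of naive cells with any of the others (0.90, 0.89 and 0.90, adjusted p at most 2.05e-05). It was also higher with each step in Cd4 cells, from 37.4, 22.6, 45.4 and 22.7 CPM in naive to 81.3, 87.7, 90.0 and 88.9 in experienced (1.19 ± 0.18, adjusted p = 4.43e-06) and 104, 150.3, 112 and 114 in Foxp3 cells (0.45 ± 0.11, adjusted p = 0.00247, not past the threshold when thinned). Eno1, the main enolase of these cells, had 429, 428, 363 and 346 CPM in naive Cd8 cells and was higher in memory (614, 669, 485 and 549.6 CPM, 0.54 ± 0.10, adjusted p = 0.000173) and effector cells (630.3, 597, 642 and 672 CPM, 0.44 ± 0.10, adjusted p = 0.000616) and lower in Pdcd1 than in effector cells (-0.34 ± 0.095, adjusted p = 0.0162). Its near-identical copy Eno1b can share reads with it, so Eno1 counts are uncertain to that extent. Aldoa was higher than in naive cells in memory (0.24), effector (0.30) and Pdcd1 Cd8 cells (0.35) and in experienced Cd4 cells (0.66), with adjusted p from 1.7e-07 to 0.0225, and Pgk1 in memory Cd8 (0.27 ± 0.073, adjusted p = 0.00879) and experienced Cd4 cells (0.29 ± 0.086, adjusted p = 0.00946). Pgk1 was lower in co-receptor-negative than in memory Cd8 cells after TMM scaling (-0.28 ± 0.062, adjusted p = 0.000658), although its CPM was higher in 2 of 4 pools. Several of these values were smaller with the Ccl5 gates. Eno1 then gave 0.30 ± 0.10, adjusted p = 0.0155 in memory, 0.092 ± 0.10, adjusted p = 0.452 in effector and -0.29 ± 0.10, adjusted p = 0.0144 in Pdcd1 against naive cells. Pgam1 was not called in Pdcd1 cells (0.17 ± 0.11, adjusted p = 0.185), nor Pgk1 in memory cells (0.091 ± 0.055, adjusted p = 0.213). Tpi1 was called in all 3 classes, at 0.59, 0.37 and 0.29, as was Aldoa at 0.23, 0.19 and 0.24.

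Gapdh, the most counted of the 32 genes, was higher in every antigen-experienced class than in naive cells. Its levels were 1108, 1276, 933 and 936 CPM in naive, 1562, 1749, 1160.1 and 1304 in memory, 2028, 2363, 1567 and 1652 in effector and 2362, 2481, 1742 and 1989 in Pdcd1 Cd8 cells. Each pool was higher in memory, effector and Pdcd1 cells than in its own naive cells (0.40 ± 0.05, adjusted p = 9.85e-07, 0.56 ± 0.05, adjusted p = 4.17e-10 and 0.68 ± 0.05, adjusted p = 9.46e-12), although the ranges of memory and naive cells overlapped between groups. Experienced Cd4 cells, at 2296, 2683, 1810.5 and 1869 CPM, lay above naive Cd4 cells at 1264, 1260.0, 1067 and 1011 (0.66 ± 0.051, adjusted p = 4.37e-11), and Foxp3 cells overlapped with them (0.00095 ± 0.049, adjusted p = 0.998). Pdcd1 against effector Cd8 cells gave 0.12 ± 0.049, adjusted p = 0.103, and co-receptor-negative against memory Cd8 cells -0.10 ± 0.049, adjusted p = 0.108, a value that became 0.12 with library totals alone. Of the brain-type isoforms, Aldoc had no UMI in naive Cd8 cells and 21 in effector Cd8 cells, at least 2.17-fold higher, and was higher in Foxp3 than in experienced Cd4 cells, at 14.4, 13.0, 11.7 and 7.41 against 2.18, 1.62, 3.12 and 2.32 CPM (2.43 ± 0.31, adjusted p = 1.66e-06). It was also higher in co-receptor-negative than in memory Cd8 cells (0.94 ± 0.32, adjusted p = 0.0232). Eno2, the neuronal enolase, was found at 2.67, 3.25, 1.80 and 4.12 CPM in Foxp3 cells and at no more than 1.37 elsewhere, with too few counts to be tested between classes, and the muscle enolase Eno3 passed no such test.

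**Figure D2:**
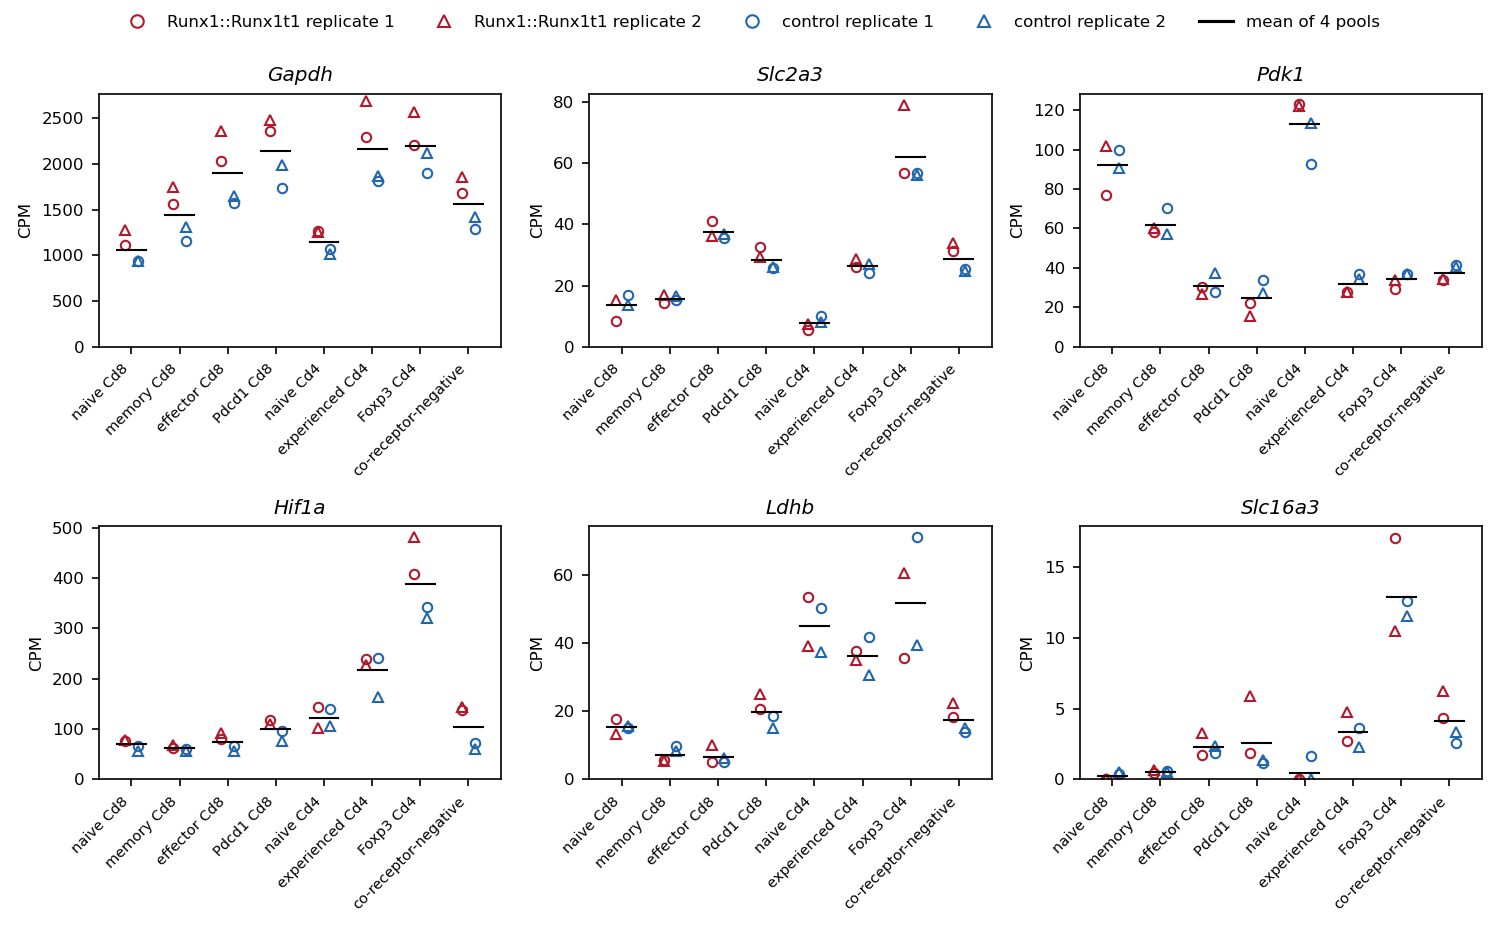
CPM of Gapdh, Slc2a3, Pdk1, Hif1a, Ldhb and Slc16a3 (vertical axes, linear) in each of the 8 classes, with 1 point per pool, coloured by group. Gapdh of the Runx1::Runx1t1 pools lies above that of the control pools in every class, Pdk1 is highest in the naive classes, and Slc2a3, Hif1a and Slc16a3 are highest in Foxp3 Cd4 cells.

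Pkm, pyruvate kinase, was highest in Foxp3 Cd4 cells, at 679, 762, 570.4 and 601 CPM against 519, 601, 429 and 459 in experienced Cd4 cells, and was higher in all 4 pools (0.35 ± 0.055, adjusted p = 1.5e-05). Naive Cd4 cells held 412, 429, 412 and 410.5 CPM, and the difference of experienced from naive Cd4 cells was not called (0.019 ± 0.059, adjusted p = 0.845). In Cd8 cells Pkm went from 283, 313, 255 and 238 CPM in naive to 343, 371, 267 and 282 in memory, 401, 441, 366 and 327 in effector and 468, 536, 385 and 412 in Pdcd1 cells. The step to memory was small (0.17 ± 0.057, adjusted p = 0.0347) and was not called under thinning (adjusted p = 0.903), and the others were 0.21 ± 0.058, adjusted p = 0.00388 for effector and 0.39 ± 0.06, adjusted p = 4.76e-06 for Pdcd1 against naive cells and 0.17 ± 0.056, adjusted p = 0.0392 for Pdcd1 against effector cells. With the Ccl5 gates Pkm was called in Pdcd1 (0.24 ± 0.049, adjusted p = 0.00014) and not in memory (0.083 ± 0.047, adjusted p = 0.181) or effector cells (0.083 ± 0.047, adjusted p = 0.149) against naive cells. Co-receptor-negative against memory Cd8 cells gave 0.031 ± 0.053, adjusted p = 0.69.

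The lactate dehydrogenases split. Ldha, the subunit that favours lactate formation, had 319, 339.7, 288 and 303 CPM in naive, 469, 499.8, 351 and 401 in memory, 539, 516, 429 and 445 in effector and 479, 474, 508 and 493 in Pdcd1 Cd8 cells, and was called higher in each against naive cells (0.42 ± 0.077, adjusted p = 0.000275, 0.35 ± 0.078, adjusted p = 0.00076 and 0.30 ± 0.08, adjusted p = 0.00271). With the Ccl5 gates the values against naive cells were 0.16 in memory (adjusted p = 0.0386), -0.0024 in effector and -0.11 in Pdcd1 cells. The calls in effector and Pdcd1 cells were thus made with the designed gates only, and the Ccl5 gates changed the naive and the other classes together. Experienced Cd4 cells were higher than naive Cd4 cells (0.24 ± 0.08, adjusted p = 0.0192), and Foxp3 against experienced Cd4, Pdcd1 against effector and co-receptor-negative against memory Cd8 cells gave 0.0034, -0.043 and -0.11, with adjusted p of 0.991, 0.799 and 0.252. The value for co-receptor-negative cells became 0.11 with library totals alone. Ldhb, the subunit that favours pyruvate formation, had 17.6, 13.4, 14.99 and 15.7 CPM in naive Cd8 cells and only 5.61, 5.35, 9.75 and 8.40 in memory and 5.01, 9.99, 5.10 and 6.42 in effector cells. Both were lower without overlap (-1.13 ± 0.27, adjusted p = 0.00342 and -1.46 ± 0.31, adjusted p = 0.000411). Pdcd1 Cd8 cells, at 20.8, 25.0, 18.6 and 15.1 CPM, were higher than effector cells in all 4 pools (1.60 ± 0.25, adjusted p = 0.000111) and overlapped with naive cells (0.13 ± 0.29, adjusted p = 0.75). In co-receptor-negative cells Ldhb stood at 18.4, 22.4, 14.0 and 15.1 CPM, above memory Cd8 cells (1.02 ± 0.17, adjusted p = 1.99e-05). Levels in Cd4 cells were 53.5, 39.1, 50.5 and 37.3 CPM in naive, 37.8, 35.1, 41.9 and 30.7 in experienced and 35.7, 60.7, 71.1 and 39.5 in Foxp3 cells, whose ranges overlapped (-0.56 ± 0.25, adjusted p = 0.0825, and 0.44 ± 0.19, adjusted p = 0.101).

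The lactate transporters went in opposite directions. Slc16a1 was highest in naive Cd8 cells, with 20.4, 30.7, 12.9 and 20.6 CPM against 19.1, 19.7, 13.2 and 13.3 in memory, 13.3, 13.3, 7.88 and 10.8 in effector and 8.25, 6.36, 14.0 and 12.4 in Pdcd1 Cd8 cells. It was lower than in naive cells in effector (-1.04 ± 0.22, adjusted p = 0.000429) and Pdcd1 cells (-1.75 ± 0.26, adjusted p = 2.28e-06), with a memory value of -0.31 ± 0.20, adjusted p = 0.316. Pdcd1 cells were called lower than effector cells (-0.71 ± 0.23, adjusted p = 0.0349), a difference seen in the Runx1::Runx1t1 pools, while both control pools had the opposite order. Foxp3 Cd4 cells, at 5.01, 8.67, 3.60 and 5.76 CPM, were lower than experienced Cd4 cells at 11.1, 10.1, 10.1 and 10.1 (-0.81 ± 0.26, adjusted p = 0.0224), and co-receptor-negative cells lower than memory Cd8 cells (-1.09 ± 0.15, adjusted p = 1.12e-06). Experienced against naive Cd4 cells gave -0.45 ± 0.32, adjusted p = 0.302. Slc16a3, the transporter of strongly glycolytic cells, was almost absent from naive cells, with 2 UMIs in naive Cd8 and 1 in naive Cd4 cells. The ratio of pooled CPM to naive Cd8 cells was 7.44 in effector cells (48 UMIs, 95% interval 1.95 to 63.2, counting error only) and 15.2 in Pdcd1 cells (93 UMIs, 4.10 to 128), with adjusted p = 0.0176 and 0.00266. In memory cells the ratio was 1.78 (73 UMIs, 0.477 to 15.01, adjusted p = 0.712). Experienced Cd4 cells had 9.31 times the level of naive Cd4 cells (99 UMIs, 1.63 to 371, adjusted p = 0.0284). Foxp3 Cd4 cells held the highest level of all classes, 17.0, 10.5, 12.6 and 11.5 CPM against 2.68, 4.75, 3.64 and 2.32 in experienced Cd4 cells (1.96 ± 0.28, adjusted p = 5.43e-06). Co-receptor-negative cells, at 4.32, 6.21, 2.57 and 3.34 CPM, stood above memory Cd8 cells at 0.474, 0.661, 0.592 and 0.509 (2.58 ± 0.26, adjusted p = 6.05e-09), and Pdcd1 against effector Cd8 cells gave 0.51 ± 0.35, adjusted p = 0.373.

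At the entry of pyruvate into mitochondria, Pdk1, the kinase that switches pyruvate dehydrogenase off, was lower in every antigen-experienced class than in naive cells. Its levels were 77.0, 102, 99.96 and 90.7 CPM in naive, 58.4, 60.3, 70.1 and 57.1 in memory, 30.3, 26.7, 27.8 and 37.4 in effector and 22.4, 15.5, 33.8 and 27.5 in Pdcd1 Cd8 cells. No class overlapped naive Cd8 cells (-0.59 ± 0.12, adjusted p = 0.000905 for memory, -1.82 ± 0.14, adjusted p = 2.1e-11 for effector and -2.46 ± 0.16, adjusted p = 1.05e-12 for Pdcd1 cells). All 3 differences were also called after thinning and with the Ccl5 gates. Pdcd1 cells were lower than effector cells in 3 of 4 pools (-0.64 ± 0.16, adjusted p = 0.00657). Naive Cd4 cells held 123, 122, 92.5 and 114 CPM and experienced Cd4 cells 27.7, 27.7, 36.7 and 34.5 (-2.11 ± 0.15, adjusted p = 1.16e-11). Foxp3 cells stayed at that low level, with 29.1, 33.6, 36.9 and 37.0 CPM (0.10 ± 0.15, adjusted p = 0.72), and co-receptor-negative cells, at 33.7, 34.3, 41.4 and 40.4 CPM, were lower than memory Cd8 cells (-0.93 ± 0.10, adjusted p = 2.7e-08). The enzyme itself moved less. Pdha1, its catalytic subunit, was lower in effector (-0.30 ± 0.12, adjusted p = 0.0349) and Pdcd1 Cd8 cells (-0.60 ± 0.13, adjusted p = 0.000242) than in naive cells after TMM scaling, although its CPM was higher in 2 of 4 pools in each. Pdhb was called lower in Foxp3 than in experienced Cd4 cells (-0.22 ± 0.074, adjusted p = 0.0361) and in co-receptor-negative than in memory Cd8 cells (-0.16 ± 0.06, adjusted p = 0.0361), and Dlat in no class comparison. Of the pyruvate carrier, Mpc1 was higher in Foxp3 than in experienced Cd4 cells, at 112, 103, 117 and 119 against 88.4, 82.8, 82.9 and 89.8 CPM (0.35 ± 0.077, adjusted p = 0.00104), and lower in Pdcd1 than in effector Cd8 cells (-0.36 ± 0.083, adjusted p = 0.00378) and in Pdcd1 than in naive Cd8 cells (-0.45 ± 0.095, adjusted p = 0.000317). Mpc2 was lower in co-receptor-negative than in memory Cd8 cells (-0.25 ± 0.068, adjusted p = 0.0053).

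Hif1a itself had 143, 102, 139.7 and 105 CPM in naive, 239, 227, 241 and 164 in experienced and 407, 482, 343 and 321 in Foxp3 Cd4 cells, and each step was called without overlap of the classes (0.58 ± 0.15, adjusted p = 0.00294, and 0.81 ± 0.12, adjusted p = 6.06e-06). In Cd8 cells it lay between 56.2 and 118 CPM and no comparison passed the test, with -0.22 ± 0.14 in memory, -0.20 ± 0.15 in effector and 0.15 ± 0.16 in Pdcd1 against naive cells and 0.35 ± 0.14 in Pdcd1 against effector cells (adjusted p from 0.0854 to 0.471). Co-receptor-negative cells, at 138, 144, 71.8 and 61.1 CPM, were called higher than memory Cd8 cells at 61.8, 67.8, 60.5 and 56.2 (0.45 ± 0.11, adjusted p = 0.00234), with overlap of the classes and not without Runx1::Runx1t1 replicate 1 (adjusted p = 0.134). Bnip3, a mitophagy receptor and known Hif1a target, was higher in Foxp3 than in experienced Cd4 cells, at 8.68, 9.03, 10.8 and 7.41 against 3.08, 4.75, 4.16 and 5.21 CPM (1.08 ± 0.21, adjusted p = 0.000354), and in co-receptor-negative than in memory Cd8 cells (0.74 ± 0.15, adjusted p = 0.000222).

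**Figure D3:**
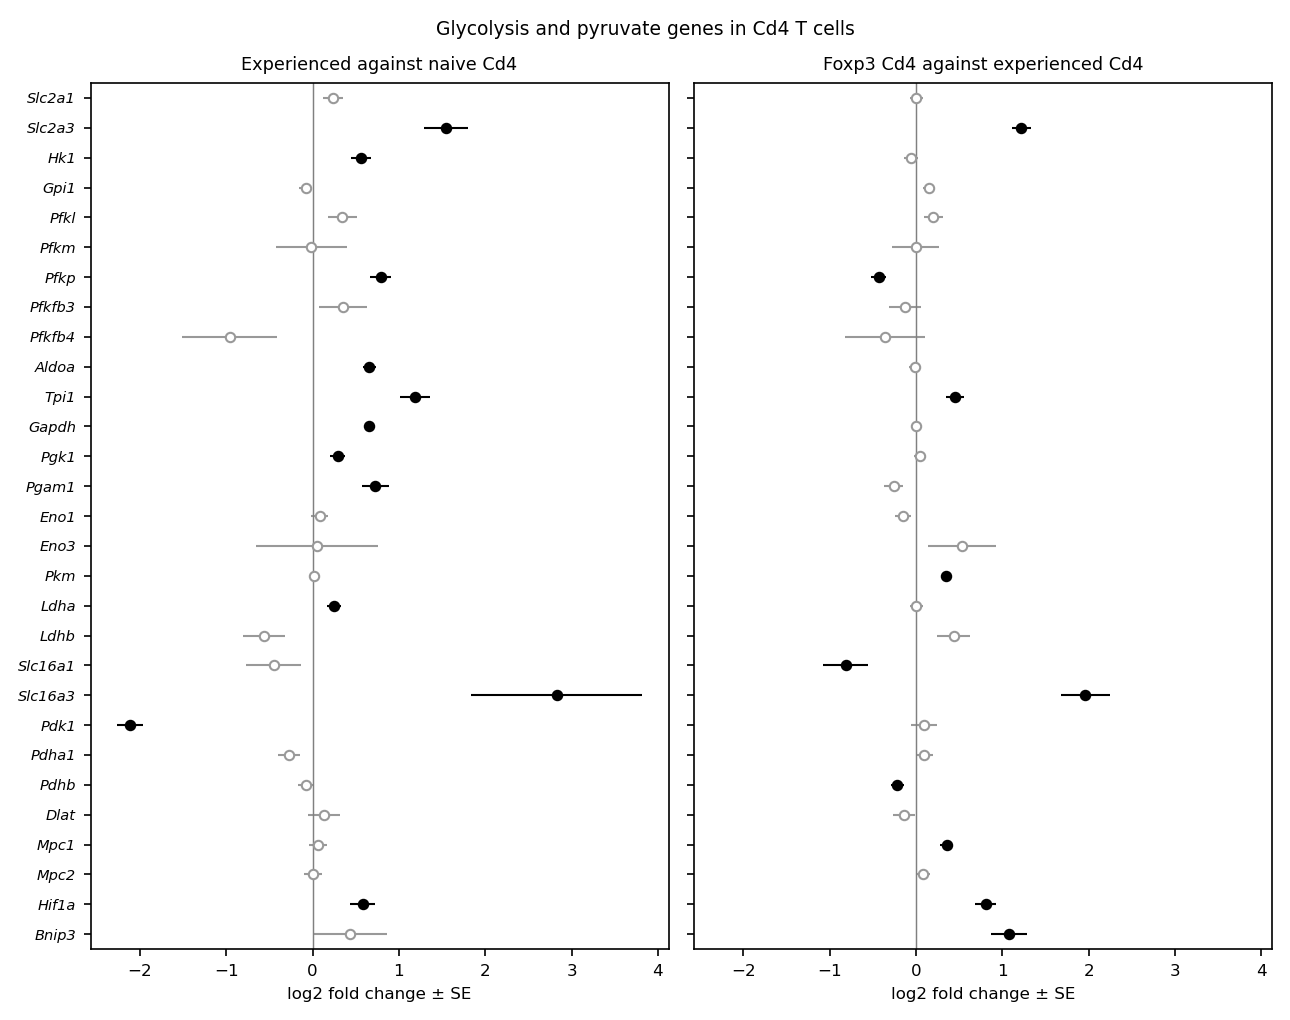
Log2 fold change with its SE (horizontal axis) of each member in experienced against naive Cd4 cells and in Foxp3 against experienced Cd4 cells, fitted over 4 pools, with filled points for genes past the threshold. Pdk1 lies furthest to the left in the first comparison at -2.11, and Slc16a3 and Slc2a3 lie at 1.96 and 1.22 in the second. Hk2, Aldoc and Eno2 are not drawn.

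A list of 57 further genes of glycolysis, the pentose phosphate branch, pyruvate handling and the Hif1a response was found complete in the files, and 39 of them passed the filter of the class comparisons. Higher and lower were 4 and 3 in memory (all genes 10.8% and 6.68%), 7 and 7 in effector (21.6% and 18.9%) and 11 and 6 in Pdcd1 against naive Cd8 cells (23.7% and 21.4%). They were 3 and 3 in Pdcd1 against effector Cd8 (6.92% and 7.08%), 11 and 5 in experienced against naive Cd4 (17.1% and 14.7%), 10 and 3 in Foxp3 against experienced Cd4 (11.8% and 9.56%), and 8 and 7 in co-receptor-negative against memory Cd8 cells (18.8% and 17.4%). Txnip, an inhibitor of glucose uptake, was lower than in naive cells in memory Cd8 (274 against 408 CPM, -0.60 ± 0.12, adjusted p = 0.000466), effector Cd8 (268 against 408 CPM, -0.86 ± 0.12, adjusted p = 1e-06) and experienced Cd4 cells (203 against 603 CPM, -1.82 ± 0.12, adjusted p = 3.04e-12). Bsg, the chaperone of the lactate transporters, was higher in memory than in naive Cd8 cells (129 against 88.6 CPM, 0.47 ± 0.071, adjusted p = 1.84e-05), and Slc16a6, a further transporter of the family, in memory (0.83 ± 0.16, adjusted p = 0.000451), effector (1.28 ± 0.16, adjusted p = 2.85e-07) and experienced Cd4 cells (1.58 ± 0.23, adjusted p = 4.37e-06). Slc2a8, an intracellular glucose transporter, was higher in Pdcd1 than in naive Cd8 cells (20.2 against 5.11 CPM, 1.91 ± 0.30, adjusted p = 6.83e-06) and than in effector cells (0.83 ± 0.19, adjusted p = 0.00384), as was Galm, which opens the galactose route (2.07 ± 0.43, adjusted p = 0.000271 and 1.12 ± 0.27, adjusted p = 0.00529). These rises were not particular to Pdcd1 cells. Experienced against naive Cd4 cells gave 1.85 ± 0.38, adjusted p = 0.000358 for Slc2a8 and 2.29 ± 0.51, adjusted p = 0.000824 for Galm. Co-receptor-negative against memory Cd8 cells gave 1.06 ± 0.15, adjusted p = 2.69e-06 and 0.57 ± 0.20, adjusted p = 0.0269. Slc2a8 was also higher in effector than in naive Cd8 cells (1.08 ± 0.31, adjusted p = 0.00664).

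The 10 further genes called higher in Foxp3 than in experienced Cd4 cells were Arrdc4, Ndrg1, P4ha1, Ddit4, Egln3, Galm, Hilpda, Tkt, Pgm2 and Bsg, and the 3 lower ones Epas1, Slc2a8 and Egln1. Ndrg1 had 24.8 against 5.12 CPM (2.22 ± 0.34, adjusted p = 1.29e-05), P4ha1, a collagen prolyl hydroxylase, 42.9 against 16.2 CPM (1.39 ± 0.15, adjusted p = 2.78e-08), and Ddit4, an inhibitor of mTORC1, 136 against 64.9 CPM (1.07 ± 0.12, adjusted p = 4.48e-08), each without overlap. Arrdc4, the glucose-responsive relative of Txnip, had 33.1 against 7.27 CPM (2.24 ± 0.31, adjusted p = 3.13e-06) and Egln3, an oxygen sensor that marks Hif1a for decay, 28.3 against 16.01 CPM (0.91 ± 0.30, adjusted p = 0.0264, higher in 2 of 4 pools). Epas1, the gene of HIF-2 alpha, was lower, with 8.83 against 17.3 CPM (-0.94 ± 0.29, adjusted p = 0.0175). Slc2a8 was also lower (14.2 against 21.4 CPM, -0.63 ± 0.21, adjusted p = 0.0275), as was Egln1, the main oxygen sensor for Hif1a (67.0 against 84.6 CPM, -0.35 ± 0.066, adjusted p = 0.000204), both without overlap. P4ha1 was lower in effector (-0.88 ± 0.17, adjusted p = 0.000165) and Pdcd1 Cd8 cells (-1.51 ± 0.20, adjusted p = 3.29e-07) than in naive Cd8 cells. It was also lower in experienced than in naive Cd4 cells, without overlap (16.2 against 36.9 CPM, -1.46 ± 0.20, adjusted p = 9.71e-07). Its level of 42.9 CPM in Foxp3 cells was not compared with that of naive Cd4 cells. Epas1 was higher in co-receptor-negative than in memory Cd8 cells (8.91 against 1.01 CPM, 2.77 ± 0.25, adjusted p = 1.07e-09), and Egln3 in the latter comparison as well (1.36 ± 0.28, adjusted p = 0.000272).

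The study's own comparison, Runx1::Runx1t1 mice with control mice, was made within each class. Gapdh was higher in both Runx1::Runx1t1 pools than in both control pools in all 8 classes. It was the only 1 of 27 members with a UMI in every sum of which this held, where 0.338% of 8590 genes lay above and 0.175% below in every class. The 8 classes come from the same 4 pools and are not independent. Hk1, Pkm and Slc2a1 lay above without overlap in 7, 7 and 6 of the 8 classes, Gpi1, Pgk1, Ldha and Hif1a in 6, 5, 6 and 6, and Pfkfb4 lay below in 6. Few of these differences passed the test within a class. The share of all genes that lay apart in 5, 6 or 7 classes was not computed, so those counts have no such reference.

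In memory Cd8 cells 8 of 32 members were higher in the Runx1::Runx1t1 group and 2 lower, where 2.54% and 1.25% of 12279 genes were. Medians were 0.19 for members and -0.0063 for all genes. Slc16a1 had 19.1, 19.7, 13.2 and 13.3 CPM (0.57 ± 0.072, adjusted p = 0.0121), Gapdh 1562, 1749, 1160.1 and 1304 (0.45 ± 0.083, adjusted p = 0.0321) and Pgam1 144, 154, 105 and 120.2 (0.42 ± 0.082, adjusted p = 0.0358). Both Runx1::Runx1t1 pools lay above both control pools for each. The other higher genes were Pkm (0.40 ± 0.069, adjusted p = 0.0268), Ldha (0.39 ± 0.082, adjusted p = 0.0439), Slc2a1 (0.36 ± 0.064, adjusted p = 0.03), Pgk1 (0.36 ± 0.077, adjusted p = 0.0456) and Tpi1 (0.34 ± 0.075, adjusted p = 0.0497). Ldhb, at 5.61, 5.35, 9.75 and 8.40 CPM, was lower (-0.70 ± 0.13, adjusted p = 0.0351), as was Bnip3 at 2.65, 2.93, 4.95 and 4.86 (-0.79 ± 0.16, adjusted p = 0.041).

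These calls depended on which pools were used. Without Runx1::Runx1t1 replicate 1 or replicate 2 none of the 10 was called, without control replicate 1 only 1 member was, and without control replicate 2 there were 11. With cells thinned to 2000 UMIs only Gapdh was called (1 of 29). Library totals gave 5 higher and 2 lower and DESeq2 9 and 1. The class was also mixed in unequal parts, since cells with at most 3 Ccl5 UMIs made up 43.8% and 41.3% of it in the Runx1::Runx1t1 pools and 51.0% and 42.5% in the control pools. The Ccl5 gates separate these cells. In memory cells of those gates 6 members were higher and 2 lower of 30 (all genes 2.21% and 1.58%), and all 8 were among the 10 above: Slc16a1 (0.61 ± 0.10, adjusted p = 0.00834), Gapdh (0.40 ± 0.078, adjusted p = 0.0217), Pgam1 (0.38 ± 0.077, adjusted p = 0.0234), Pkm (0.36 ± 0.076, adjusted p = 0.0305), Ldha (0.36 ± 0.078, adjusted p = 0.0336) and Slc2a1 (0.33 ± 0.066, adjusted p = 0.0222) higher, and Ldhb (-1.05 ± 0.18, adjusted p = 0.0114) and Bnip3 (-0.94 ± 0.21, adjusted p = 0.0349) lower. With 1 pool left out in turn 3 to 9 members were called, and after thinning 1.

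In naive Cd8 cells none of 24 members was called by edgeR, where 0.703% of 7967 genes were, and 3 had an unadjusted p under 0.05. DESeq2 called none of the 8 to which it gave an adjusted p. This gate held only 92 cells in Runx1::Runx1t1 replicate 2. The wider naive class of the Ccl5 gates, with 1465 to 2786 cells per pool, gave 9 of 29 higher and 0 lower, where 2.52% and 1.16% of 11171 genes were. They were Eno1 (0.47 ± 0.078, adjusted p = 0.0113), Slc16a1 (0.53 ± 0.092, adjusted p = 0.014), Gapdh (0.45 ± 0.079, adjusted p = 0.0145), Tpi1 (0.43 ± 0.085, adjusted p = 0.0241), Slc2a1 (0.41 ± 0.085, adjusted p = 0.0281), Pkm (0.37 ± 0.075, adjusted p = 0.0241), Pgam1 (0.36 ± 0.084, adjusted p = 0.0427), Ldha (0.36 ± 0.083, adjusted p = 0.0427) and Pfkp (0.35 ± 0.065, adjusted p = 0.0188). In that class Eno1 had 536, 588, 399 and 426 CPM, Gapdh 1296, 1456, 993 and 1047 and Slc2a1 54.3, 49.4, 40.5 and 39.5, each with the groups apart. Thinned to 2000 UMIs, 2 of 27 members were called, and 4 to 7 were with 1 pool left out.

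**Figure D4:**
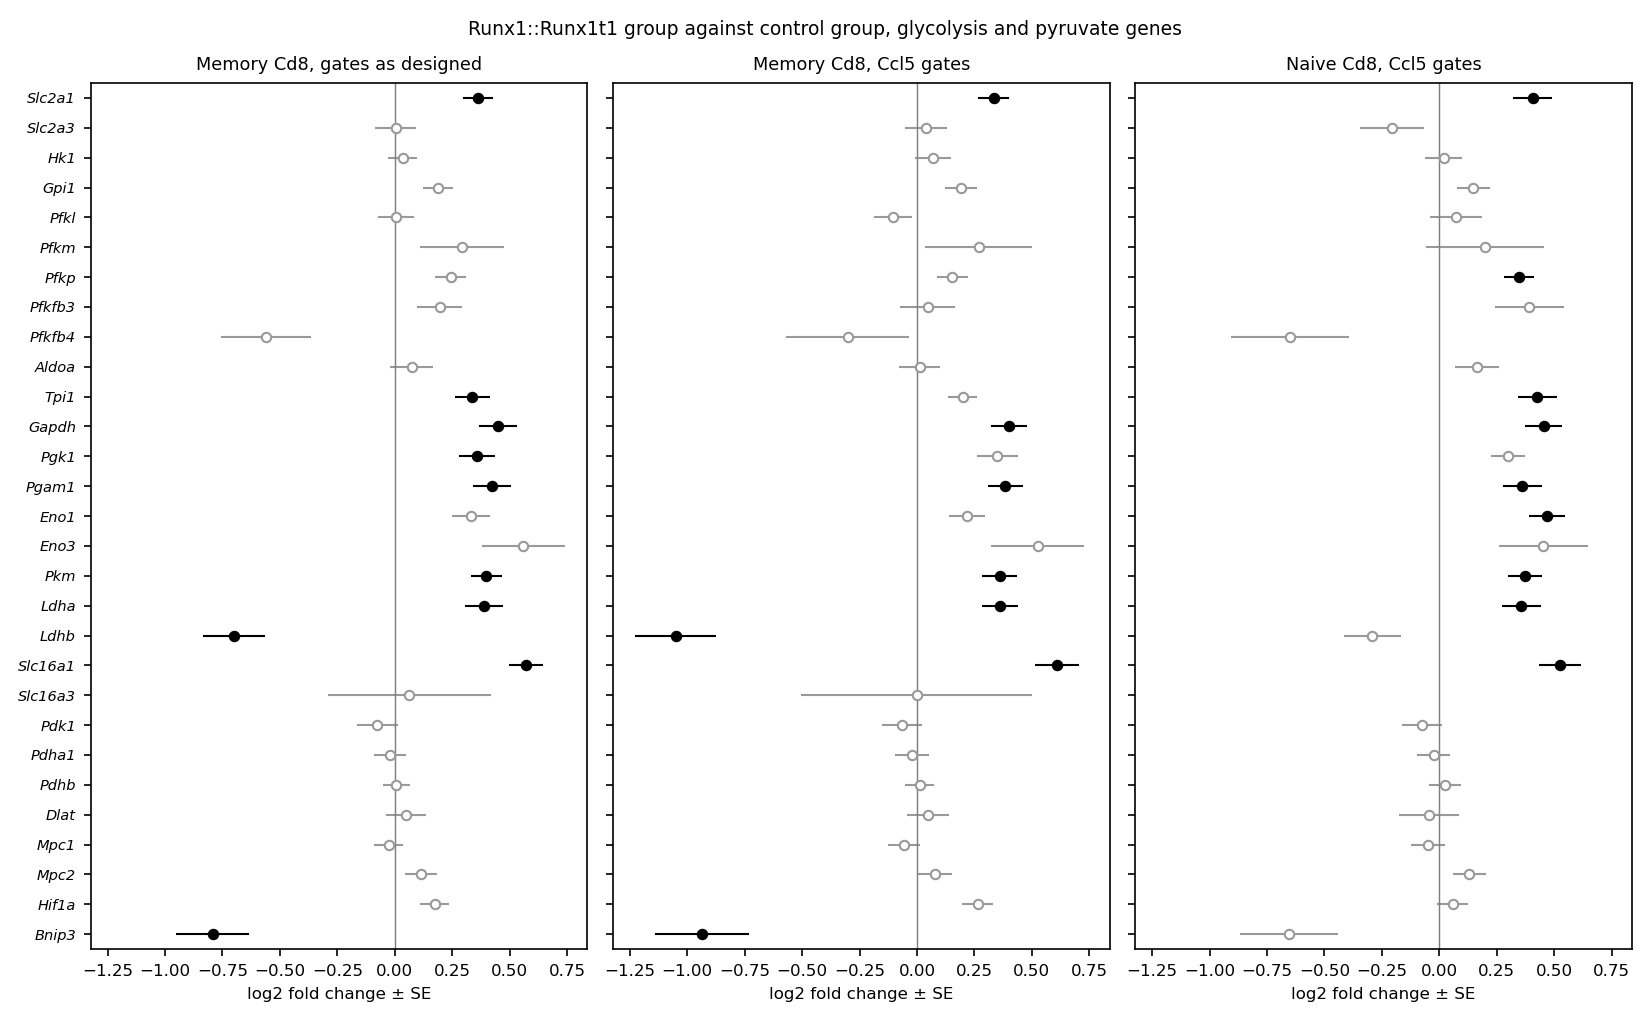
Log2 fold change with its SE (horizontal axis) of the Runx1::Runx1t1 group over the control group for each member, in memory Cd8 cells of the designed gates and in memory and naive Cd8 cells of the Ccl5 gates, 2 pools per group. Filled points passed the threshold, 10, 8 and 9 in the 3 panels, and Ldhb and Bnip3 are the called genes on the left. Hk2, Aldoc and Eno2 are not drawn.

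The other classes gave few calls. In effector Cd8 cells edgeR called 0 of 29 members, where 0.0491% of 10181 genes were called, with 5 at an unadjusted p under 0.05 and 1 called by DESeq2. In Pdcd1 Cd8 cells it called 0 of 26 (all genes 3.88%), with 6 under 0.05 unadjusted and none by DESeq2, and in naive Cd4 cells 0 of 21 (0.328%), with 1 and none. In Foxp3 Cd4 cells the counts were 0 of 28 (0.499%), with 5 under 0.05 unadjusted and none by DESeq2. In experienced Cd4 cells 1 of 31 was higher and 0 lower, where 1.69% and 1.31% of 10956 genes were: Gapdh, at 2296, 2683, 1810.5 and 1869 CPM (0.49 ± 0.10, adjusted p = 0.0425). Leaving out Runx1::Runx1t1 replicate 2 ended that call. The medians over members and over all genes were 0.15 and -0.007 in naive Cd8, 0.11 and -0.0025 in effector Cd8, -0.07 and -0.0065 in Pdcd1 Cd8, 0.14 and -0.0012 in naive Cd4, 0.081 and -0.0042 in experienced Cd4, 0.19 and -0.0066 in Foxp3 Cd4 and 0.082 and -0.0073 in co-receptor-negative cells.

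In co-receptor-negative cells 2 members were higher and 1 lower of 31, where 5.1% and 2.71% of 12006 genes were. Hif1a had 138, 144, 71.8 and 61.1 CPM, so that both Runx1::Runx1t1 pools held more than either control pool (1.001 ± 0.082, adjusted p = 0.000183). Without control replicate 1, the pool with 476 CPM of neutrophil granule genes in this class, the difference was 1.10. Control replicate 2 also held more of this RNA (16.7 CPM) than the Runx1::Runx1t1 pools (1.81 and 3.25 CPM). The part of this RNA in the Hif1a difference was not tested. Foxp3 ran from 9.85 to 75.5 CPM over the sums of this class, and Foxp3 Cd4 cells held the highest Hif1a level. The part of such cells in the difference was not tested either. Pkm was higher at 417, 457, 307 and 329 CPM (0.37 ± 0.077, adjusted p = 0.0198) and Pdk1 lower at 33.7, 34.3, 41.4 and 40.4 (-0.35 ± 0.084, adjusted p = 0.0359). Without control replicate 1, or without Runx1::Runx1t1 replicate 2, 1 member was called, and Pdk1 lost its call in 8 of 16 alternatives, among them thinning, DESeq2 and library totals. Library totals gave 7 higher and 0 lower, and DESeq2 3 and 0.

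The group difference of each gene was then followed over the classes, as the log2 fold change of the Runx1::Runx1t1 group over the control group. Gapdh gave 0.35 in naive Cd8, 0.45 in memory Cd8, 0.42 in effector Cd8, 0.31 in Pdcd1 Cd8, 0.34 in naive Cd4, 0.49 in experienced Cd4, 0.27 in Foxp3 Cd4 and 0.31 in co-receptor-negative cells, with both pools above in each and adjusted p of 0.0571 to 0.392 where it was not called. Slc2a1 gave 0.16 in naive Cd8, 0.36 in memory Cd8, 0.19 in effector Cd8, 0.14 in Pdcd1 Cd8, 0.27 in naive Cd4, 0.37 in experienced Cd4, 0.20 in Foxp3 Cd4 and 0.018 in co-receptor-negative cells (uncalled p 0.133 to 0.954), although thinning turned the naive Cd8 value to -0.17 and leaving out Runx1::Runx1t1 replicate 1 to -0.094. Pkm gave 0.27 in naive Cd8, 0.40 in memory Cd8, 0.25 in effector Cd8, 0.27 in Pdcd1 Cd8, 0.087 in naive Cd4, 0.39 in experienced Cd4, 0.32 in Foxp3 Cd4 and 0.37 in co-receptor-negative cells (uncalled p 0.0868 to 0.948). The sign was positive in every class for these 3 genes as tested. Hk1 gave 0.41 in naive Cd8, 0.034 in memory Cd8, 0.20 in effector Cd8, 0.44 in Pdcd1 Cd8, 0.53 in naive Cd4, 0.12 in experienced Cd4, 0.31 in Foxp3 Cd4 and 0.15 in co-receptor-negative cells (p 0.199 to 0.799). It was also positive throughout and called in no class.

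Other abundant genes were not positive throughout. Ldha gave 0.16 in naive Cd8, 0.39 in memory Cd8, 0.25 in effector Cd8, -0.14 in Pdcd1 Cd8, 0.088 in naive Cd4, 0.33 in experienced Cd4, 0.30 in Foxp3 Cd4 and 0.25 in co-receptor-negative cells (uncalled p 0.0872 to 0.952), and Pdcd1 Cd8 cells had 479, 474, 508 and 493 CPM. Eno1 gave 0.28 in naive Cd8, 0.33 in memory Cd8, -0.12 in effector Cd8, -0.30 in Pdcd1 Cd8, 0.23 in naive Cd4, 0.13 in experienced Cd4, -0.0064 in Foxp3 Cd4 and -0.034 in co-receptor-negative cells (p 0.0645 to 0.991), called in none, and the control pools lay above without overlap in effector and Pdcd1 Cd8 cells. Hif1a gave 0.32 in naive Cd8, 0.17 in memory Cd8, 0.47 in effector Cd8, 0.33 in Pdcd1 Cd8, 0.071 in naive Cd4, 0.26 in experienced Cd4, 0.44 in Foxp3 Cd4 and 1.001 in co-receptor-negative cells (uncalled p 0.142 to 0.969). Pdk1, lower in the Runx1::Runx1t1 group in co-receptor-negative cells, gave -0.14 in naive Cd8, -0.076 in memory Cd8, -0.24 in effector Cd8, -0.83 in Pdcd1 Cd8, 0.30 in naive Cd4, -0.31 in experienced Cd4, -0.22 in Foxp3 Cd4 and -0.35 in co-receptor-negative cells (uncalled p 0.163 to 0.851). Naive Cd4 cells had the opposite sign. Ldhb gave 0.10 in naive Cd8, -0.70 in memory Cd8, 0.30 in effector Cd8, 0.38 in Pdcd1 Cd8, 0.15 in naive Cd4, 0.056 in experienced Cd4, -0.17 in Foxp3 Cd4 and 0.39 in co-receptor-negative cells (uncalled p 0.0844 to 0.962), with a positive sign in 6 of the 8 classes. The transporters were uneven as well. Slc16a1 gave 0.57 in naive Cd8, 0.57 in memory Cd8, 0.45 in effector Cd8, -0.96 in Pdcd1 Cd8, 0.12 in experienced Cd4, 0.54 in Foxp3 Cd4 and 0.25 in co-receptor-negative cells (uncalled p 0.217 to 0.809) and was not tested in naive Cd4 cells, and Slc2a3 gave -0.52 in naive Cd8, 0.0036 in memory Cd8, 0.067 in effector Cd8, 0.19 in Pdcd1 Cd8, 0.15 in experienced Cd4, 0.29 in Foxp3 Cd4 and 0.30 in co-receptor-negative cells (p 0.0812 to 0.987), likewise without naive Cd4 cells. Hk2 and Slc16a3 were tested in 4 and 5 classes and called in none, with values from -0.18 to 0.56 and from 0.064 to 0.72.

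Whether a class difference itself differed between the groups was tested as an interaction. For memory against naive Cd8 cells 0 of 29 members passed (all genes 0.324%), with 6 at an unadjusted p under 0.05 and 0 by DESeq2. For effector against naive cells 0 of 27 passed (all genes 0.282%), with 2 and 0. For Pdcd1 against naive cells 1 of 25 passed, where 2.41% of all genes did: Eno1, at 491, 478, 596 and 545 CPM in Pdcd1 and 429, 428, 363 and 346 in naive Cd8 cells. Log2 ratios of Pdcd1 to naive CPM, before TMM scaling, were 0.19 and 0.16 in the Runx1::Runx1t1 group against 0.71 and 0.66 in the control group (interaction -0.57 ± 0.14, adjusted p = 0.0355). With the Ccl5 gates they were -0.15 and -0.34 against 0.56 and 0.31, so the sign then differed between the groups. Cycling cells made up 13.3% and 13.8% of Pdcd1 Cd8 cells in the Runx1::Runx1t1 pools and 7.92% and 8.65% in the control pools, and without them the interaction was -0.69 (adjusted p = 0.0159). The call was lost in 6 alternatives, which were thinning, stricter gates, doublets kept, DESeq2, library totals and no filter on low counts, and whenever Runx1::Runx1t1 replicate 2 or a control pool was left out. Among Slc2a1, Slc2a3, Hk1, Gapdh, Pkm, Ldha, Ldhb, Slc16a1, Pdk1 and Hif1a the interactions ran from -0.79 (Ldhb) to 0.51 (Slc2a3) in memory, -0.22 (Hk1) to 0.62 (Slc2a3) in effector and -1.54 (Slc16a1) to 0.73 (Slc2a3) in Pdcd1 cells, and none passed the test.

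Of the 57 further genes, 2 were higher and 1 lower of 44 between the groups in memory Cd8 cells (all genes 2.54% and 1.25%) and 3 and 1 of 41 in experienced Cd4 cells (1.69% and 1.31%). They were 1 and 2 of 37 in Pdcd1 Cd8 cells (3.88% in either direction) and 5 and 0 of 45 in co-receptor-negative cells (5.1% and 2.71%), and none passed in the other 4 classes. Tkt, transketolase of the pentose phosphate branch, was higher in memory Cd8 cells of the Runx1::Runx1t1 group (176 against 139 CPM, 0.36 ± 0.075, adjusted p = 0.043), and Ddit4 was lower (-0.38 ± 0.073, adjusted p = 0.0344). With the Ccl5 gates memory cells gave 0 higher and 1 lower of 42, Ddit4 (all genes 2.21% and 1.58%), and Tkt was not called. Naive Cd8 cells of those gates gave 2 higher, Tkt and Pgm2, and 1 lower, Ddit4, of 44 (all genes 2.52% and 1.16%). In Pdcd1 Cd8 cells Myc, a transcription factor that drives glycolytic genes on activation, was lower (43.0 against 107 CPM, -1.39 ± 0.15, adjusted p = 0.0061), Ndrg1 was lower (-2.75 ± 0.54, adjusted p = 0.0292) and the Myc antagonist Mxi1 higher (65.8 against 18.1 CPM, 1.83 ± 0.25, adjusted p = 0.00892). The fall of Myc from naive to Pdcd1 cells was also larger in the Runx1::Runx1t1 group (interaction -1.63 ± 0.24, adjusted p = 0.00039). Epas1 was higher in experienced Cd4 cells (26.1 against 8.55 CPM, 1.67 ± 0.18, adjusted p = 0.00349) and in co-receptor-negative cells (13.1 against 4.74 CPM, 1.38 ± 0.17, adjusted p = 0.00138), where Hilpda, a lipid droplet protein induced by low oxygen, was higher too (45.3 against 24.2 CPM, 0.82 ± 0.092, adjusted p = 0.000918).

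Over the 32 sums of pool and class, the genes whose log2(CPM + 1) was most like that of Ldha were Ppp1cc (Pearson r 0.914), Gapdh (0.903) and Lmnb1 (0.897) among 11080 genes. For Slc2a1 they were F2r (0.825), Hsd11b1 (0.816) and Bspry (0.811). The sums share 4 pools, their depth and their base composition, so these values describe likeness only.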

How the data were processed

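Bone marrow T cells of 4 pools were profiled with 10x Genomics 5′ gene expression and T cell receptor libraries. The deposited matrices hold raw UMI counts per gene and barcode, which the authors made with Cell Ranger 6.1.2 and GRCm38 per the submitters' processing notes. The annotation release is not given in the sources used here. The authors' own cell filter, clusters and cell names were not used.

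Barcodes with under 200 genes or over 15% mitochondrial UMIs were removed, as were the highest 5% of Scrublet doublet scores per library, because the automatic threshold marked almost no cell in 3 of 4 libraries. Counts were summed per pool and class and tested with edgeR 4.0.16 (TMM scaling, filterByExpr, quasi-likelihood test, Benjamini-Hochberg adjustment over all genes), with DESeq2 1.42.0 as an alternative, in R 4.3.3. The 7 class comparisons came from 1 fit over 8 classes with the pool as a block, the 8 group comparisons from 2 pools against 2 within a class, and the 3 interactions from the classes compared. Alternatives were thinning to 2000 UMIs per cell, stricter gates, cells without cycling or without the largest clonotype, doublets kept, every co-receptor-negative cell, library totals, no filter on low counts, ribosomal genes left out, the replicate number as a block, each pool left out and, chosen after the data were seen, the Ccl5 gates. Under alternatives other than the Ccl5 gates, counts of members called stand without the share of all genes. The members, gates and gene lists were chosen with earlier results of these data known. Named with values were the 12 members of largest change past the threshold in each comparison and 12 members throughout. For the further pathway genes, the rule of naming the 6 of largest change was followed only in part. Those given with values are a selection of the genes called. The replicate numbers are shared by the groups, but with only 2 pairs they were not taken to pair the pools. Nothing says which litters the pools came from, so p-values measure the spread between these pools only. Tested on data simulated from sums of the Ccl5 gates with 200 genes changed 2-fold, edgeR recovered 183 of them for memory against naive Cd8 cells. That fit held these 2 classes only and gave 13 false calls among 11337 genes. For the group difference edgeR recovered 153 in memory Cd8 cells with 13 false calls among 11469 genes. In Pdcd1 Cd8 cells it recovered 95 with 10 among 9229. The designed gates, with 1177 naive Cd8 cells against 8882, were not simulated. Libraries held 90958101 to 102883449 UMIs, and intervals and limits cover counting error only.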

Additional observations from a re-analysis of the deposited data

Results flagged for a closer look

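Eno1 differed between the groups in how Pdcd1 Cd8 cells compared with naive Cd8 cells, by a test of the interaction itself (-0.57, adjusted p = 0.0355, edgeR's quasi-likelihood test). The 2 control pools had log2 ratios of CPM, before TMM scaling, of 0.71 and 0.66 and the 2 Runx1::Runx1t1 pools 0.19 and 0.16. With the Ccl5 gates these ratios were 0.56 and 0.31 in the control pools and -0.15 and -0.34 in the Runx1::Runx1t1 pools. With the Ccl5 gates the interaction was -0.72 (adjusted p = 0.0134) for Pdcd1 and -0.26 (adjusted p = 0.0057) for memory against naive cells. Pools differed in the number of Pdcd1 Cd8 cells, 101 and 104 in the control group against 557 and 2049, and the part of this in the difference was not tested.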

How the results depend on the processing

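The 116 values of single genes were recomputed under 1640 alternatives, of which 1399 kept direction and side of the threshold, 200 kept the direction and lost the call, 33 gained one and 8 reversed. The 8 were Slc2a3 in memory against naive Cd8 cells without Runx1::Runx1t1 replicate 1 (-0.012, and up to 0.31 with another pool left out), Ldha against naive Cd8 cells with the Ccl5 gates in effector (-0.0024) and Pdcd1 cells (-0.11), Slc2a1 in Pdcd1 against naive Cd8 cells (0.14) and Gapdh (0.12) and Ldha (0.11) in co-receptor-negative against memory Cd8 cells with library totals, and Slc2a1 between the groups in naive Cd8 cells after thinning (-0.17) and without Runx1::Runx1t1 replicate 1 (-0.094, and up to 0.29 with another pool left out).

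Counts of members called moved by more than 1.5 times as follows, and the cause was not tested. Thinning gave 8 in memory against naive Cd8, 7 in Pdcd1 against effector Cd8, 6 in Foxp3 against experienced Cd4 and 1 between the groups in memory Cd8 cells. Stricter gates gave 8 in experienced against naive Cd4 and 0 between the groups in experienced Cd4 cells. Library totals gave 20 in co-receptor-negative against memory Cd8, and between the groups 1 in naive Cd8 and 7 in co-receptor-negative cells. Between the groups, leaving out cycling cells gave 1 in naive Cd8 and 1 in Foxp3 Cd4, the Ccl5 gates 9 in naive Cd8, DESeq2 1 in effector Cd8 and 2 in experienced Cd4, and no filter on low counts 2 in effector Cd8, 2 in Pdcd1 Cd8, 5 in experienced Cd4 and 8 in co-receptor-negative cells. The interaction for memory cells gave 1 with the Ccl5 gates and 1 with doublets kept, that for effector cells 1 without the largest clonotype, and that for Pdcd1 cells 0 with thinning, stricter gates, library totals, DESeq2, no filter and doublets kept.

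The replicate number as a block gave 1 in effector Cd8, 2 in experienced Cd4 and 9 in co-receptor-negative cells between the groups and moved no other group count by over 1.5 times. Only 2 pairs exist, and same-numbered pools correlated by 0.078 to 0.331 with the Ccl5 gates, so the numbers were not taken as pairs.

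With 1 pool left out, an arm of 1 pool is assumed to vary like the other. The members called then ranged from 8 to 11 in memory against naive Cd8 (8 without Runx1::Runx1t1 replicate 1), 12 to 17 in effector and 13 to 14 in Pdcd1 against naive Cd8, 3 to 14 in Pdcd1 against effector Cd8, 10 to 13 in experienced against naive Cd4, 9 to 12 in Foxp3 against experienced Cd4 and 10 to 13 in co-receptor-negative against memory Cd8. Between the groups they ranged from 0 to 1 in naive Cd8 (1 without Runx1::Runx1t1 replicate 1), 0 to 11 in memory Cd8 (11 without control replicate 2), 0 to 2 in effector Cd8 and 0 to 3 in Pdcd1 Cd8 (2 and 3 without Runx1::Runx1t1 replicate 1), 0 to 1 in naive Cd4 (1 without control replicate 2), 0 to 2 in experienced Cd4 (2 without Runx1::Runx1t1 replicate 1 or control replicate 2), 0 to 0 in Foxp3 Cd4 and 1 to 4 in co-receptor-negative cells. Interactions ranged from 0 to 0 for memory, 0 to 1 for effector and 0 to 3 for Pdcd1 cells (1 and 3 without Runx1::Runx1t1 replicate 1).

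Depth limited naive Cd4 cells (124 to 137 per pool), naive Cd8 cells (92 to 517) and Pdcd1 Cd8 cells of the control group most. DESeq2 gave an adjusted p to only 8 members between the groups in naive Cd8 and in naive Cd4 cells and in the interaction for Pdcd1 cells, and to 22 in Foxp3 Cd4 cells.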
